A study of Danio rerio with 20 samples.

Results

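HCC in zebrafish livers that expressed activated β-catenin from 2 different transgenic designs was compared gene by gene. For each gene the tumor response of the HepABC model (HepABC HCC over HepABC control) was set against that of the CreLox model (CreLox HCC over CreLox control), and the difference of the 2 changes was tested. The comparison used 18 of the 20 sequenced livers and 15387 of 32520 annotated genes, those with enough counts in both experiments. β-Catenin is the transcriptional coactivator of the canonical Wnt pathway. Without Wnt a destruction complex marks it for degradation, and once stabilized it enters the nucleus and drives target genes through TCF/LEF factors. In the liver this pathway sets metabolic zonation and hepatocyte proliferation, and mutations that activate β-catenin are among the frequent drivers of human HCC.

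The HepABC tumors were livers of 5 fish carrying Tg(fabp10a-pt-beta-catenin) at 6 months post fertilization (mpf), with no larval treatment. Their 5 controls were wild type siblings of 6 mpf without a transgene. The CreLox tumors were livers of 4 fish carrying Tg(fabp10a-CreERT2;fabp10a-flox-beta-catenin), given 10 μM 4-hydroxytamoxifen as larvae between days 3 and 6 and collected at 11 mpf. Their 4 controls carried the Cre driver Tg(fabp10a-CreERT2) alone, received 0.1% ethanol over the same days and were also 11 mpf. All fish were adult males, and part of each liver was sequenced. The fabp10a promoter that drives both transgenes is active in hepatocytes, so other liver cells did not carry the active oncogene by design. In CreLox fish the oncogene is expressed only in cells where Cre has acted and in their progeny. Age, tamoxifen, the genotype of the controls and removal of optical duplicates, which was applied to CreLox reads only, differ between the experiments. Their parts in a difference between the models cannot be told apart from that of the transgene. The labels place more CreLox fish in the HCC group than the study's methods count, and the labels were followed.

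Total counts ranged from 20903187 to 37994885 per liver. Values are given as CPM, read counts scaled to a common library total, over the tested genes, on trimmed-mean scaling, one value per fish, and changes as log2 fold changes. The hepatocyte marker fabp10a was abundant in all 18 livers. By edgeR it was lower in HepABC HCC than in HepABC control (log2 change -1.30, adjusted p = 0.00508). It was not called in CreLox (-0.58, adjusted p = 0.383) or for the difference (-0.72, adjusted p = 0.349). The zebrafish β-catenin gene ctnnb1, chosen after its values were seen, was higher in every tumor than in every control of its experiment. Both transgenes encode Xenopus β-catenin, and reads were aligned to the zebrafish genome. Whether transgene reads were counted at ctnnb1 was not tested. ctnnb1 had 268, 184, 288, 243 and 171 CPM in HepABC HCC, against 105, 110, 98, 79.3 and 93.4 CPM in HepABC control. It had 233, 217, 211 and 156 CPM in CreLox HCC, against 147, 122, 91.7 and 105 CPM in CreLox control, and the 2 changes did not pass the test for a difference (log2 difference 0.43, standard error 0.28, adjusted p = 0.321).

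CreLox controls 630 and 628 stood apart from the other 2 CreLox controls, 621 and 622, on the second principal component of the CreLox experiment. Their scores were -53.9 and -68.8, against 53.3 and 52.1. FOS (ENSDARG00000031683), an immediate early gene chosen like hspa5 after its values were seen, had 43.7 and 45.5 CPM in 630 and 628, against 2.24 and 2.91 CPM in 621 and 622. The stress-inducible chaperone gene hsp70.3 had 12.1 and 32.8 CPM in 630 and 628, against 0.0458 and 0.102 CPM in 621 and 622. Not all such genes separated the pairs. egr1 and atf3, also chosen after their values were seen, overlapped. egr1 had 29.3 and 44.5 CPM in the first pair, against 15.5 and 33.7 CPM in the second. atf3 had 5.15 and 4.76 CPM, against 2.2 and 10.4 CPM. The ER chaperone gene hspa5 had 1050 and 2930 CPM in the first pair, against 210 and 226 CPM in the second. Results that rest on the CreLox response are therefore also given without fish 628 and 630. In the HepABC experiment, controls 317C1 and 317C2 lay apart from 317C4, 317C5 and 317C8 on the second principal component. Without that pair 1886 genes passed the test of the difference, beside 2144 with all fish.

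The 2 models shared part of their response and differed at 2144 genes (13.9% of those tested; edgeR quasi-likelihood test, adjusted p under 0.05). The change was more positive in HepABC HCC at 1119 genes (7.27%) and more negative at 1025 genes (6.66%). Within each model, HepABC HCC differed from its controls at 5926 genes (38.5%; 20.3% higher and 18.2% lower), and CreLox HCC from its controls at 788 genes (5.12%; 2.92% higher and 2.20% lower). Without fish 628 and 630 the difference was called at 755 genes, of which 672 were among the 2144. Leaving out one fish moved this count most for CreLox control 628 (1327 genes) and CreLox tumor 624 (1393 genes). The CreLox count was 316, 331 and 484 without tumors 605, 604 and 623, and 470 without control 628. It rose to 938 without tumor 624. On the first principal component of the CreLox experiment tumor 624 scored 18.1, against 57.2 to 68.8 for the other CreLox tumors. In the fit without fish 628 and 630, the sign of the difference was kept at 2127 of the 2128 called genes that could still be tested. These genes were selected by the full fit, which shares all the remaining livers, so kept signs are no independent check. Scaling by library size alone moved the median difference of all genes to 0.61, against 0.02 with the trimmed-mean scaling. That scaling gave 2995 positive and 438 negative calls.

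Most genes with a different response were called in HepABC HCC alone. The class held 1745 of the 2144 genes, 912 of them higher and 833 lower in HepABC HCC than in HepABC control. Their median CreLox changes were −0.29 and 0.01, beside median HepABC changes of 1.41 and −1.70. CreLox HCC alone accounted for 142 genes, 74 higher and 68 lower than in CreLox control. Both models moved in one direction at 39 genes, and the change was the larger one in HepABC at 33 of these. The models moved in opposite directions at 59 genes, of which 42 were higher in HepABC HCC and lower in CreLox HCC. A further 159 genes passed for the difference without passing in either model. CreLox had fewer fish, so a gene not called there is not shown to be unchanged. When fish 628 and 630 were left out, the classes held 631 genes in HepABC alone, 73 in CreLox alone, 11 in one direction, 15 in opposite directions and 25 in neither.

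**Figure D1:**
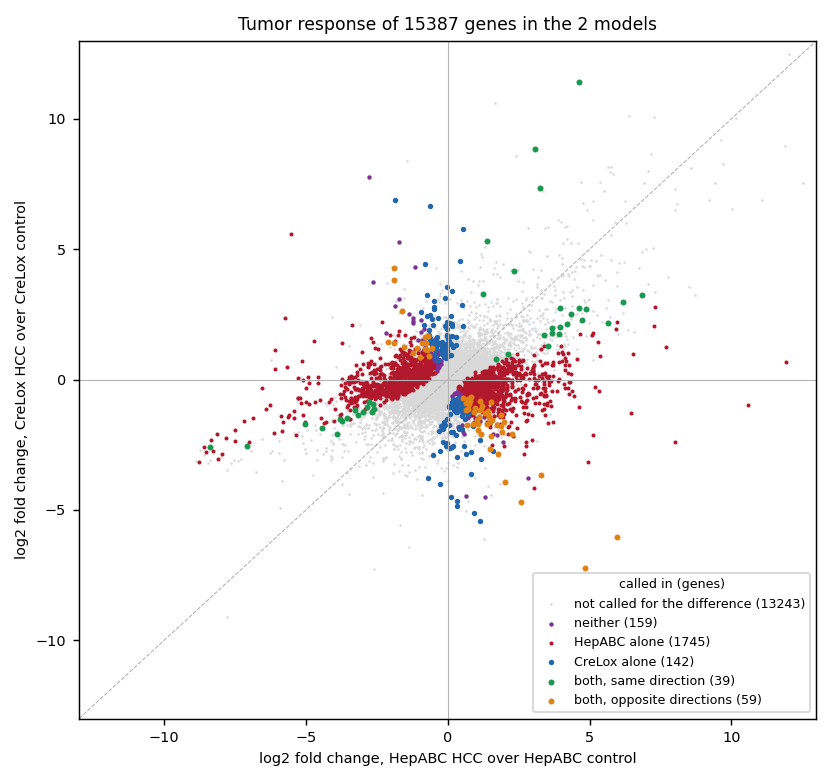
Tumor response of the tested genes, with the log2 fold change of HepABC HCC over HepABC control on one axis and that of CreLox HCC over CreLox control on the other, each point a gene and colored by its class. The cloud of 1745 genes called in HepABC alone spreads along the HepABC axis near 0 on the CreLox axis, while the 142 CreLox-alone genes spread along the other axis.

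Of 1190 distinct genes in the function lists, 291 were called, 129 with a positive and 162 with a negative difference. In the fit without fish 628 and 630, 109 were called, and 74 of the 129 called genes examined singly kept their call. Without HepABC controls 317C1 and 317C2 the proteasome list had 4 calls, the aminoacyl-tRNA synthetase list 3, the conjugation list 4, the glycolysis list 4 and the oxidative phosphorylation list 3, where all fish gave 8, 6, 9, 7 and 6. The mitosis, immediate early, bile acid and IGF lists each had 2 calls without that pair, where all fish gave 6, 6, 5 and 5, and thyroid hormone metabolism had 1, where all fish gave 4. The exocrine pancreas list had 0 calls by edgeR without them, with 8 members at an unadjusted p under 0.05. The hepatocyte transcription factor list had 6, where all fish gave 3. Counts for each list are read against the 7.27% positive and 6.66% negative calls among all genes.

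**Figure D2:**
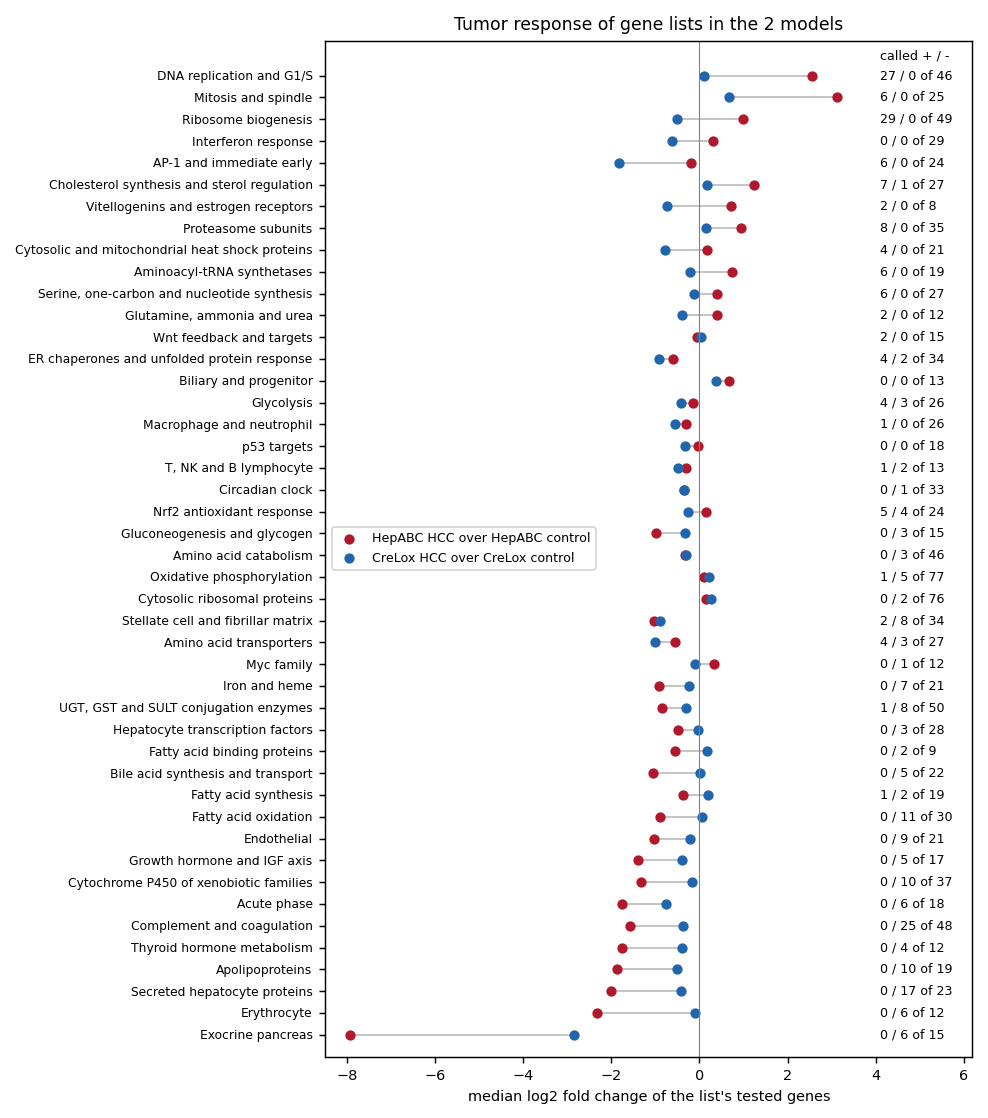
Median log2 fold change of each function list in HepABC HCC over HepABC control (red) and CreLox HCC over CreLox control (blue), for lists with at least 8 tested genes, ordered by the median difference. The text at the right gives the number of tested genes called for the difference with a positive and a negative sign. DNA replication and ribosome biogenesis have 27 and 29 positive calls, and complement and coagulation has 25 negative calls.

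DNA replication genes rose in HepABC HCC at 41 of 46 tested members. In CreLox HCC edgeR called 0 members higher and 1 lower, with 2 at an unadjusted p under 0.05. For the difference, 27 members were called with a positive sign and 0 with a negative one. The list median was 2.55 in HepABC and 0.11 in CreLox, with a median difference of 2.46, and 20 genes were called without fish 628 and 630. rpa2, a subunit of the single-strand DNA binding replication protein A, had 13.6, 31.1, 16.9, 15.3 and 22.6 CPM in HepABC HCC, against 3.75, 2.6, 3.02, 3.04 and 2.52 CPM in HepABC control. The same gene had 4.07, 3.26, 2.66 and 2.81 CPM in CreLox HCC, against 1.91, 2.57, 3.34 and 3.06 CPM in CreLox control. Every HepABC tumor lay above every HepABC control, while the CreLox groups overlapped (log2 difference 2.50, standard error 0.35, adjusted p = 0.000933). pola1, the catalytic subunit of DNA polymerase α, had 7.57, 24.1, 7.07, 6.44 and 14.1 CPM in HepABC HCC, against 0.901, 0.992, 1.56, 1.26 and 0.931 CPM in HepABC control. It had 1.29, 1.48, 1.18 and 1.29 CPM in CreLox HCC, against 0.81, 0.96, 1.56 and 2.15 CPM in CreLox control. The HepABC tumors were again separate from their controls, and the CreLox tumors lay within the range of theirs (log2 difference 3.45, standard error 0.54, adjusted p = 0.00127). The partners of pola1 in the primase complex, pola2 and prim1, differed by 3.96 and 3.31 on the log2 scale.

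Mitosis genes rose in HepABC HCC as well, at 24 of 25 tested members, with fewer called differences. All members had a positive difference and 6 were called. Their median was 3.12 in HepABC and 0.68 in CreLox, where 0 members were called by edgeR, DESeq2 or limma voom and 3 had an unadjusted p under 0.05. cdc20, an activator of the anaphase-promoting complex, had 6.09, 11.3, 7.8, 5.92 and 10.8 CPM in HepABC HCC, against 0.216, 0.207, 0.78, 1.73 and 0.31 CPM in HepABC control. In the other model it had 0.796, 0.889, 0.23 and 0.138 CPM in CreLox HCC, against 0.143, 0.274, 0.366 and 0.511 CPM in CreLox control. The 2 HepABC groups did not overlap and HepABC controls 317C4 and 317C5 were the highest of their group (log2 difference 3.02, standard error 0.88, adjusted p = 0.0299). ccna2, which encodes cyclin A2, and the cytokinesis genes kif23 and PRC1 (ENSDARG00000005993) differed by 3.76, 2.65 and 3.06. On the mitosis list 1 member was called without fish 628 and 630, cdc20 differed by 3.46 (adjusted p = 0.055), and the list median difference was 2.58.

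Ribosome biogenesis genes had medians of opposite sign in the 2 models. The list median was 0.98 in HepABC and -0.50 in CreLox, where it was -0.17 without fish 628 and 630. Of 49 tested genes, 29 were called with a positive difference and 0 with a negative one, and 17 were called without fish 628 and 630. Within the models, 31 members were called higher in HepABC HCC and 2 were called lower in CreLox HCC. dkc1, the pseudouridine synthase dyskerin of small nucleolar ribonucleoproteins, had 63.2, 101, 35.6, 105 and 88 CPM in HepABC HCC, against 14.6, 29, 19.7, 16.3 and 20 CPM in HepABC control. It had 12.4, 15.6, 20.4 and 15.4 CPM in CreLox HCC, against 39.9, 100, 31 and 27.4 CPM in CreLox control. All HepABC tumors were above and all CreLox tumors below their controls, with CreLox control 628 the highest of its group (log2 difference 3.62, standard error 0.55, adjusted p = 0.0011). The rule that named dkc1, and nifk below, required such separation. Of the 42 genes of their class and direction, 12 met the whole rule. gnl3, the nucleolar GTPase nucleostemin, had 63.2, 123, 75.8, 112 and 123 CPM in HepABC HCC, against 36.3, 32.9, 40.7, 37.2 and 37.2 CPM in HepABC control. Its CreLox values were 20, 24.8, 30.5 and 24.3 CPM in HCC, against 48.8, 95.8, 45.1 and 41.1 CPM in control. The groups were again separate in both experiments and in opposite order (log2 difference 2.64, standard error 0.37, adjusted p = 0.000933). nifk, which is not on the list and encodes a nucleolar partner of the proliferation antigen Ki-67, had 39.5, 61.2, 58.7, 103 and 66.5 CPM in HepABC HCC, against 22.3, 27.1, 25.6, 25.4 and 21.8 CPM in HepABC control. In CreLox HCC nifk had 11.9, 10.7, 15.8 and 15.6 CPM, against 29.1, 57.7, 22.6 and 24.2 CPM in CreLox control, below every control (log2 difference 2.73, standard error 0.41, adjusted p = 0.00108). With fish 628 and 630 left out, the differences were 2.85, 2.22 and 2.22, with adjusted p = 0.00603, 0.00427 and 0.00578. The CreLox values themselves were -0.87, -0.79 and -0.80 and did not pass (adjusted p = 0.222, 0.113 and 0.146). The rRNA processing genes nip7 and imp4 differed by 2.36 and 2.72. Also outside the list, rcc1, the exchange factor of the Ran GTPase, changed by 2.28 in HepABC and -2.09 in CreLox, and alkbh8, a tRNA methyltransferase, by 1.49 and -1.64. Without that pair of controls rcc1 and alkbh8 were not called in CreLox (-0.47 and -0.89, adjusted p = 0.442 and 0.259). Genes for the ribosomal proteins themselves showed no such split, since 0 of 76 were called with a positive and 2 with a negative difference. One of these 2 was the paralog rpl22l1, which differed by -2.42.

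Protein degradation and tRNA charging genes were also higher in HepABC HCC, by smaller amounts. Of 35 proteasome subunits, 8 were called with a positive difference, and 34 had a positive sign. The median was 0.95 in HepABC and 0.15 in CreLox. psmb1, a β subunit of the proteasome core, had 63.5, 71.6, 47.1, 67.7 and 68.7 CPM in HepABC HCC, against 24.6, 21, 27.1, 23.7 and 23.1 CPM in HepABC control. It had 28.6, 31.5, 26.1 and 17.2 CPM in CreLox HCC, against 24, 20.1, 18.8 and 18.2 CPM in CreLox control. HepABC tumor 317E9 was the lowest of its group and still above every control, and the CreLox groups overlapped (log2 difference 1.07, standard error 0.25, adjusted p = 0.0113). The subunit genes psmd7, psmc4 and psma5 differed by 1.27, 1.35 and 1.23. Of 19 aminoacyl-tRNA synthetases, 6 were called with a positive difference, among them wars1 (2.43), cars1 (1.80), qars1 (2.03) and mars1 (1.64). After removal of fish 628 and 630, edgeR called 0 members of the proteasome list and 0 of the synthetase list, with 10 and 2 at an unadjusted p under 0.05 and median differences of 0.52 and 0.34, and psmb1 differed by 0.94 (adjusted p = 0.0618).

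Nucleotide and serine synthesis differed in 6 of 27 tested genes, all with a positive difference. umps, which makes UMP in pyrimidine synthesis, had 8.55, 17.9, 6.09, 13.4 and 13.4 CPM in HepABC HCC, against 1.98, 2.11, 1.36, 1.64 and 2.59 CPM in HepABC control. It had 1.99, 2.07, 1.64 and 2.07 CPM in CreLox HCC, against 5.05, 4.83, 2.84 and 1.43 CPM in CreLox control. The HepABC groups were separate, and CreLox controls 630 and 628 were the highest of theirs (log2 difference 3.48, standard error 0.49, adjusted p = 0.000933). psat1, a transaminase of serine synthesis, had 9.0, 5.35, 2.38, 11.1 and 58.1 CPM in HepABC HCC, against 0.504, 0.496, 0.292, 0.561 and 0.483 CPM in HepABC control. In CreLox it had 0.643, 1.88, 0.525 and 0.507 CPM in HCC, against 0.667, 1.95, 0.915 and 0.766 CPM in control. HepABC tumor 317E11 held the highest value by far, all 5 tumors exceeded their controls, and the CreLox groups overlapped (log2 difference 5.47, standard error 1.04, adjusted p = 0.0034). CTPS1 (ENSDARG00000030700), a CTP synthase, changed by 1.09 in HepABC and -1.43 in CreLox. aldh1l2, a mitochondrial folate enzyme, differed by 3.92. Of these genes, 3 were called without fish 628 and 630, when the CreLox value of CTPS1 was -0.91 and did not pass (adjusted p = 0.265).

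Cholesterol synthesis genes were higher in HepABC HCC, where 15 of 27 tested genes were called higher, against 1 in CreLox HCC. For the difference, 7 were called with a positive and 1 with a negative sign. The median was 1.25 in HepABC and 0.17 in CreLox. insig1, which retains the sterol sensor complex in the ER and is itself a sterol-regulated gene, had 171, 207, 302, 479 and 371 CPM in HepABC HCC, against 36.2, 9.84, 61.6, 31.1 and 8.41 CPM in HepABC control. It had 52, 42.7, 43 and 64.4 CPM in CreLox HCC, against 75.7, 83.9, 84.4 and 62.6 CPM in CreLox control. All HepABC tumors exceeded their controls and the CreLox groups overlapped (log2 difference 3.98, standard error 0.64, adjusted p = 0.00134). hmgcs1, HMG-CoA synthase, had 210, 62.4, 11, 78.3 and 81.7 CPM in HepABC HCC, against 5.62, 6.08, 7.7, 6.5 and 11.7 CPM in HepABC control. It had 25.9, 24.4, 24 and 8.02 CPM in CreLox HCC, against 16.9, 60.2, 5.95 and 5.06 CPM in CreLox control. HepABC tumor 317E9 fell within the control range, and CreLox control 628 was above every CreLox tumor (log2 difference 3.66, standard error 1.01, adjusted p = 0.0236). SQLE (ENSDARG00000079946), one of 2 identifiers with the name of squalene epoxidase, had 35.5, 9.44, 2.63, 21.5 and 9.55 CPM in HepABC HCC, against 0 in all 5 HepABC controls. Its CreLox values were 7.65, 4.15, 0.623 and 0.0461 CPM in HCC, against 0.0477, 7.68, 0 and 0 CPM in control. Mean SQLE was at least 126-fold higher in HepABC HCC, against a floor of 3 counts in each control, and the CreLox groups overlapped (adjusted p = 0.0396 for the difference). idi1 and ebp differed by 1.34 and 4.40. In the absence of fish 628 and 630, insig1 kept its call (3.92, adjusted p = 0.00885), hmgcs1 differed by 1.66 (adjusted p = 0.278), SQLE was not called, with a fitted difference of 2.33, and 1 member of the list was called.

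**Figure D3:**
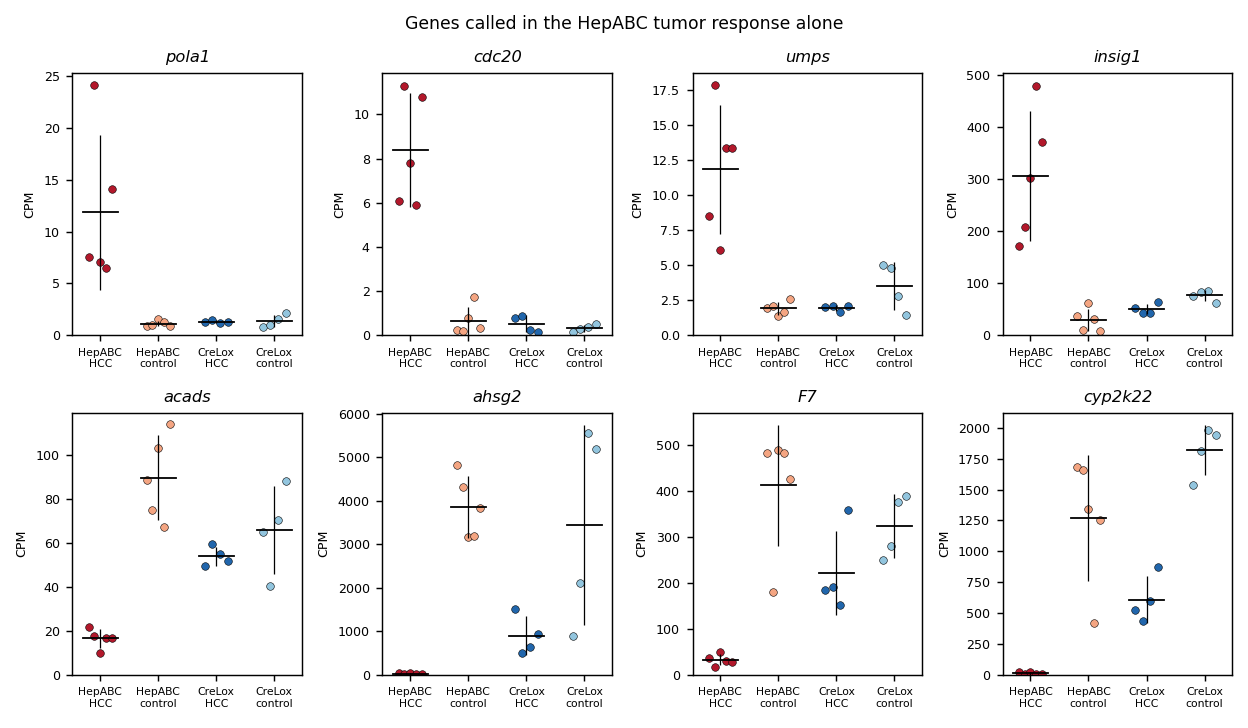
CPM of 8 genes called in the HepABC response alone, one point per fish, with the group mean (horizontal bar) and SD (vertical line) in HepABC HCC and control (n = 5 each) and CreLox HCC and control (n = 4 each). The 5 HepABC tumors lie above the HepABC controls for pola1, cdc20, umps and insig1 and below them for acads, ahsg2, F7 and cyp2k22.

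Secreted proteins of hepatocytes were lower in HepABC HCC. The levels here are those of whole livers, in which fewer cells of a type and less RNA per cell cannot be told apart. All 23 tested members of this list had a negative difference and 17 were called. The list also holds the hepatocyte marker fabp10a, whose product is not secreted and which enters the sums given here. The median was -2.02 in HepABC and -0.41 in CreLox. Summed over the list, HepABC HCC had 35475 to 69300 CPM, against 168210 to 222328 CPM in HepABC control. In CreLox HCC the sum was 118340 to 169043 CPM, against 133111 to 242115 CPM in CreLox control, so that only the HepABC groups were separate. ahsg2, a fetuin, had 38.1, 19.5, 36.7, 3.35 and 8.77 CPM in HepABC HCC, against 4814, 4312, 3172, 3191 and 3827 CPM in HepABC control. It had 1516, 502, 625 and 931 CPM in CreLox HCC, against 888, 2109, 5568 and 5200 CPM in CreLox control. The HepABC groups were far apart, and the CreLox groups overlapped through control 630 (log2 difference -5.56, standard error 0.92, adjusted p = 0.00156). rbp4, the plasma retinol carrier, and itih2, a hyaluronan-binding plasma protein, differed by -2.69 and -1.28. The fit without fish 628 and 630 called 4 members, and the median difference was -1.35.

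Complement and coagulation factors showed the same direction in 42 of 48 tested genes, and 25 were called with a negative difference. In HepABC HCC 38 members were called lower, against 2 in CreLox HCC, and the medians were -1.59 and -0.38. F7 (ENSDARG00000075827), one of 3 identifiers with the name of coagulation factor VII, had 35.6, 16.6, 49.6, 29 and 28.2 CPM in HepABC HCC, against 482, 179, 490, 483 and 425 CPM in HepABC control. It had 185, 190, 152 and 358 CPM in CreLox HCC, against 249, 279, 375 and 390 CPM in CreLox control. Every HepABC tumor was below its controls, of which 317C2 was the lowest, and CreLox tumor 624 lay within the control range (log2 difference -3.15, standard error 0.47, adjusted p = 0.00108). The plasmin inhibitor gene serpinf2a was called lower in both models, by -3.26 and -1.17, with a difference of -2.09. The coagulation factor gene f9a and the complement gene c8g differed by -1.92 and -1.61. apcs, a pentraxin of the acute phase, had 503, 727, 469, 460 and 551 CPM in HepABC HCC, against 5822, 15304, 14773, 15855 and 12622 CPM in HepABC control. Its CreLox values were 3362, 2033, 2500 and 6576 CPM in HCC, against 815, 1883, 5231 and 8060 CPM in control. CreLox tumors lay inside the wide range of their controls, while the HepABC groups were separate (log2 difference -4.43, standard error 0.71, adjusted p = 0.00134). Of 18 acute phase genes, 6 were called with a negative difference, among them cp (-2.26), serpina1l (-1.79) and crp3 (-2.41). The calls without fish 628 and 630 were 9 complement and coagulation genes and 1 acute phase gene.

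Apolipoproteins and fatty acid oxidation, which carry lipid in the plasma and burn it in mitochondria and peroxisomes, were lower in HepABC HCC. Of 19 apolipoprotein genes, 10 were called with a negative difference, and the medians were -1.87 in HepABC and -0.51 in CreLox. apoa2, a component of high density lipoprotein, had 11320, 6326, 10849, 5485 and 8515 CPM in HepABC HCC, against 53175, 44395, 71050, 58338 and 60539 CPM in HepABC control. It had 18510, 20997, 20880 and 25718 CPM in CreLox HCC, against 31506, 31833, 46764 and 47716 CPM in CreLox control. Tumors were below controls in both models, with the larger change in HepABC (log2 difference -1.88, standard error 0.33, adjusted p = 0.00216). APOB (ENSDARG00000042780), apoa1b and apoa1a differed by -2.20, -2.33 and -2.07. Of 30 fatty acid oxidation genes, 11 were called with a negative difference, with medians of -0.90 in HepABC and 0.06 in CreLox. acads, short-chain acyl-CoA dehydrogenase, had 21.6, 17.5, 9.72, 16.5 and 16.8 CPM in HepABC HCC, against 88.7, 74.8, 103, 67 and 114 CPM in HepABC control. It had 49.6, 59.4, 54.7 and 51.6 CPM in CreLox HCC, against 64.8, 40.1, 70.2 and 88.1 CPM in CreLox control. The HepABC groups were separate and the CreLox tumors lay within the range of their controls (log2 difference -2.16, standard error 0.35, adjusted p = 0.0014). The dehydrogenases acadm and acadvl and the peroxisomal oxidase acox3 differed by -1.41, -1.63 and -1.93. Fatty acid synthesis was mixed, with MID1IP1 (ENSDARG00000019302), an activator of lipogenesis, at 4.14, and DGAT1 (ENSDARG00000103503) and ACLY (ENSDARG00000055652), of triglyceride and acetyl-CoA synthesis, at -3.41 and -1.84. Leaving out fish 628 and 630 gave 4 called apolipoprotein and 7 called fatty acid oxidation genes. In that fit MID1IP1 and ACLY differed by 1.72 and -1.68 and did not pass (adjusted p = 0.239 and 0.129). DGAT1 kept its call there (-3.48, adjusted p = 0.0195).

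Detoxification genes were lower in HepABC HCC. Of 37 cytochrome P450 genes of the xenobiotic families, 10 were called with a negative difference, with medians of -1.32 in HepABC and -0.16 in CreLox. cyp2k22 had 16.6, 1.36, 22.6, 2.97 and 0.546 CPM in HepABC HCC, against 1682, 1655, 1344, 415 and 1255 CPM in HepABC control. It had 521, 433, 598 and 872 CPM in CreLox HCC, against 1533, 1815, 1984 and 1945 CPM in CreLox control. Tumors were below controls in both models without overlap, although the CreLox change itself was not called (adjusted p = 0.232), and the difference was (log2 difference -5.59, standard error 1.06, adjusted p = 0.0034). cyp2ad3, cyp1d1 and cyp2y3 differed by -1.89, -2.40 and -2.33. Of 50 conjugation enzymes, 1 was called with a positive and 8 with a negative difference, among them ugt5c2 (-2.02) and gstr (-1.60). The list median of -0.58 turned to 0.02 with library size scaling. Of 22 bile acid genes, 5 were called, all negative, including the synthesis enzymes hsd3b7 (-2.20) and CYP8B1 (ENSDARG00000053068; -1.55). There were 5 P450 genes, 4 conjugation genes and 2 bile acid genes called without fish 628 and 630.

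Further lists had smaller numbers of called differences. Iron and heme genes had 7 negative calls of 21, among them HMOX1 (ENSDARG00000027529), heme oxygenase, at -4.08 and the iron exporter gene slc40a1 at -3.45. The growth hormone and IGF axis had 5 of 17, led in size by igfals (-4.18), which encodes the plasma subunit that stabilizes circulating IGF. Thyroid hormone metabolism had 4 of 12, including the carrier gene ttr (-2.10). Amino acid catabolism had 3 of 46, a share near the 6.66% of negative calls among all genes, including amdhd1 (-1.86) of histidine and hpda (-1.80) of tyrosine breakdown. Glycolysis was split, with 4 positive and 3 negative calls of 26. ENO1 (ENSDARG00000022456), an enolase, differed by 1.74, and pgam1b, a phosphoglycerate mutase, by -1.33. The Nrf2 list was split as well (5 positive and 4 negative of 24), with the glutathione genes gclm and gsr at 1.65 and 2.01. Of 77 oxidative phosphorylation genes, 1 was called positive and 5 negative, among them the complex I genes NDUFS8 (ENSDARG00000051986; -1.27) and ndufv2 (-0.97). These shares were at or below those among all genes. Once fish 628 and 630 were left out, edgeR called 0 iron and heme and 0 thyroid genes, with 7 and 4 at an unadjusted p under 0.05, and HMOX1 and slc40a1 differed by -4.19 and -2.99 (adjusted p = 0.0557 and 0.111). The same fit called 2 genes of the IGF list, 3 of amino acid catabolism, 1 positive and 1 negative of glycolysis, 2 positive of the Nrf2 list and 1 negative of oxidative phosphorylation.

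The largest differences among abundant genes called in HepABC alone belonged to different functions. The rule that named the genes of this paragraph required separate HepABC groups. TMEM120A (ENSDARG00000042379), a membrane protein of the ER and nuclear envelope, had 0.717, 0.446, 0.217, 0.301 and 0.415 CPM in HepABC HCC, against 47.9, 49.8, 30.9, 37.8 and 33.3 CPM in HepABC control. It had 14.3, 18.4, 46 and 28.1 CPM in CreLox HCC, against 33.8, 31.7, 30.6 and 36 CPM in CreLox control. The HepABC groups were far apart and the CreLox groups overlapped (log2 difference -6.24, standard error 0.49, adjusted p = 2.21e-06). Its difference without fish 628 and 630 was -6.22 (adjusted p = 0.000582). vtg1, an egg yolk precursor that the liver makes in females, had 6.6, 0.589, 114, 12.2 and 0.874 CPM in HepABC HCC, against 0.0721, 0.289, 0.0974, 0 and 0.0345 CPM in HepABC control. Its CreLox values were 0.796, 0.823, 0.361 and 0.0922 CPM in HCC, against 0.0477, 0.0685, 9.93 and 1.07 CPM in control. All HepABC tumors were above their controls, 317E9 most of all, and CreLox controls 621 and 622 exceeded every CreLox tumor (log2 difference 10.41, standard error 2.28, adjusted p = 0.00719). gck, the glucokinase of hepatocyte glucose uptake, and the membrane fusion gene MYOF (ENSDARG00000006112) changed by 6.53 and 5.34 in HepABC, and had values of 0.97 and -0.43 in CreLox that did not pass (adjusted p = 0.667 and 0.862). Neither difference passed without fish 628 and 630 (3.52 and 2.55). hsd17b3, whose human counterpart makes testosterone, and the chemokine gene ccl39.1 changed by -8.12 and -5.13 in HepABC, and had values of -2.08 and 0.70 in CreLox, where neither passed the test.

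CreLox HCC had its own set of called genes, among them the transcription factor genes creb3l3a and hnf4b. creb3l3a, an ER-bound transcription factor of lipid metabolism, had 49.1, 46.5, 23.6, 34.1 and 34.4 CPM in HepABC HCC, against 44.8, 40.3, 49.5, 59.6 and 76.6 CPM in HepABC control. It had 100, 98.8, 179 and 66.6 CPM in CreLox HCC, against 30.7, 27.8, 20.3 and 23.8 CPM in CreLox control. All CreLox tumors exceeded their controls, and the HepABC groups overlapped (log2 difference -2.64, standard error 0.40, adjusted p = 0.00108). The rule that named creb3l3a and xkr9 required this order of the CreLox groups. hnf4b, a nuclear receptor of the HNF4 family, had 69.8, 65.8, 60.2, 94.6 and 84.9 CPM in HepABC HCC, against 79.6, 53.5, 164, 120 and 166 CPM in HepABC control. Its CreLox values were 69.4, 93.4, 96.4 and 57.5 CPM in HCC, against 16.8, 20.4, 32.1 and 36.6 CPM in control. Again only the CreLox groups were separate, and the CreLox controls lay below every other liver of the 4 groups (log2 difference -2.21, standard error 0.44, adjusted p = 0.00416). xkr9, of the XK-related family of membrane proteins, had 24.5, 14.7, 63.4, 8.18 and 22.2 CPM in HepABC HCC, against 37.9, 30, 10.2, 5.66 and 8.59 CPM in HepABC control. It had 14.9, 9.48, 5.9 and 18.3 CPM in CreLox HCC, against 0, 0.274, 0.32 and 0.255 CPM in CreLox control. CreLox controls were at or near 0 and all other livers of the 4 groups above 5 CPM (log2 difference -5.26, standard error 0.99, adjusted p = 0.00327). These 3 genes kept their calls for the difference without fish 628 and 630, with differences of -2.86, -1.84 and -4.84. In that fit the CreLox value of hnf4b was 1.20 and did not pass (adjusted p = 0.100). The CreLox values of creb3l3a and xkr9 were 2.33 and 5.37 and passed (adjusted p = 0.00903 and 0.0188). chchd3b and kctd7 changed by 3.12 and 2.50 in CreLox, and their differences did not pass without those fish (adjusted p = 0.114 and 0.079). In the whole list of 28 hepatocyte transcription factors 3 were called, all negative. Beside hnf4b these included foxa1, which changed by -0.85 in HepABC and had a value of 0.72 in CreLox that did not pass (adjusted p = 0.18). Within CreLox, 1 member of the list was called higher and 1 lower in HCC, and the list median was -0.03. The fit without fish 628 and 630 called 3 genes of this list, and foxa1 was not among them (adjusted p = 0.107).

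Genes called lower in CreLox HCC alone included carriers of glucose and amino acids. SLC2A1 (ENSDARG00000007412), one of 2 identifiers named for the glucose transporter GLUT1, had 2.43, 1.36, 3.17, 2.39 and 1.55 CPM in HepABC HCC, against 1.66, 2.07, 3.46, 2.48 and 1.69 CPM in HepABC control. It had 1.22, 3.65, 2.49 and 2.26 CPM in CreLox HCC, against 20.9, 16.2, 11 and 7.46 CPM in CreLox control. The CreLox controls stood above all other livers of the 4 groups (log2 difference 2.47, standard error 0.50, adjusted p = 0.00448), and the difference was 1.89 without fish 628 and 630 (adjusted p = 0.0453). The 2 CreLox livers without HCC, which enter no contrast, were also low, at 2.66 and 3.01 CPM. SLC7A3, a cationic amino acid transporter, is the name of 2 identifiers. The first (ENSDARG00000020645) had 19, 32, 39.3, 86.2 and 49.5 CPM in HepABC HCC, against 16.3, 16.5, 39.5, 13.7 and 14.8 CPM in HepABC control. It had 1.81, 3.23, 1.44 and 8.9 CPM in CreLox HCC, against 27.7, 3.91, 52.2 and 42.8 CPM in CreLox control. CreLox control 628 lay with the CreLox tumors and the other 3 CreLox controls above them (log2 difference 4.22, standard error 0.90, adjusted p = 0.0062). The second (ENSDARG00000061566) had 6.08, 14.3, 18.6, 26.7 and 12.2 CPM in HepABC HCC, against 2.85, 4.79, 5.89, 4.26 and 5.34 CPM in HepABC control. It had 2.48, 2.21, 2.69 and 3.5 CPM in CreLox HCC, against 2.19, 5.31, 12.6 and 15.9 CPM in CreLox control, and was called in opposite directions (log2 difference 3.48, standard error 0.66, adjusted p = 0.00331). Further amino acid carriers, SLC43A1 (ENSDARG00000037393) and SLC38A3 (ENSDARG00000027065), differed by 3.01 and -2.42, and the list had 4 positive and 3 negative calls of 27, and 4 positive calls without fish 628 and 630.

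FOXO1 (ENSDARG00000099555), a transcription factor held out of the nucleus by insulin signaling, had 35.3, 91.8, 124, 114 and 85.4 CPM in HepABC HCC, against 20.5, 37.7, 155, 52.1 and 153 CPM in HepABC control. It had 8.51, 9.32, 4.49 and 10.7 CPM in CreLox HCC, against 21.3, 26.2, 298 and 401 CPM in CreLox control. The CreLox tumors were below every other liver of the 4 groups, and controls 621 and 622 were more than 10 times as high as 630 and 628 (log2 difference 4.61, standard error 1.23, adjusted p = 0.0204). GLUL (ENSDARG00000100003), one of 2 identifiers named for glutamine synthetase, had 8.21, 24.2, 30.1, 18.6 and 101 CPM in HepABC HCC, against 16.1, 10.7, 13.5, 13.6 and 6.48 CPM in HepABC control. It had 3.18, 13.2, 11.4 and 11.5 CPM in CreLox HCC, against 32.8, 163, 46.6 and 17.4 CPM in CreLox control. The CreLox tumors lay below their controls and the HepABC groups overlapped (log2 difference 4.32, standard error 1.01, adjusted p = 0.0105), while without fish 628 and 630 the difference was 3.30 (adjusted p = 0.0611). The other GLUL identifier (ENSDARG00000099776) was not called in either model or for the difference. zmynd19 and the sulfotransferase gene sult2st3 had values of 1.14 and -0.70 in HepABC, where neither passed, and changed by -2.30 and -3.77 in CreLox. Without fish 628 and 630 neither difference passed (1.93 and 2.52, adjusted p = 0.0707 and 0.137). In that fit the CreLox value of zmynd19 was -0.79 and did not pass (adjusted p = 0.389), while that of sult2st3 was -3.21 (adjusted p = 0.0323).

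SLC25A36 and tie1 were called lower in HepABC HCC and higher in CreLox HCC, the CreLox call only with fish 628 and 630 in the fit. SLC25A36 (ENSDARG00000038731), a mitochondrial carrier of pyrimidine nucleotides, had 29.5, 27.8, 16.5, 18.7 and 21.3 CPM in HepABC HCC, against 132, 69.6, 87.9, 64.6 and 134 CPM in HepABC control. It had 48.3, 60.5, 43.9 and 57 CPM in CreLox HCC, against 9.06, 10.7, 23.6 and 33.6 CPM in CreLox control. Groups were separate in both experiments and in opposite order (log2 difference -3.55, standard error 0.49, adjusted p = 0.000933). The rule that named SLC25A36 and tie1 required such separation. Of the 17 genes of this class and direction, 4 met the whole rule. tie1, an endothelial receptor tyrosine kinase, had 11.8, 7.69, 8.2, 10 and 6.64 CPM in HepABC HCC, against 20.2, 14.2, 17.5, 21.1 and 14.6 CPM in HepABC control. Its CreLox values were 16.6, 21.9, 27.8 and 18 CPM in HCC, against 11.2, 8.33, 11.3 and 16 CPM in control. No tumor overlapped its controls, although CreLox control 622 came close to the lowest CreLox tumor (log2 difference -1.83, standard error 0.31, adjusted p = 0.00194). TNRC6C (ENSDARG00000076847), of the microRNA silencing complex, changed by -1.22 in HepABC and by 1.01 in CreLox. SLC25A36 and tie1 differed by -2.97 and -1.60 without fish 628 and 630, with adjusted p = 0.00427 and 0.0184. Their CreLox values in that fit were 0.87 and 0.62 and did not pass (adjusted p = 0.169 and 0.224), and neither did that of TNRC6C (0.72, adjusted p = 0.22).

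**Figure D4:**
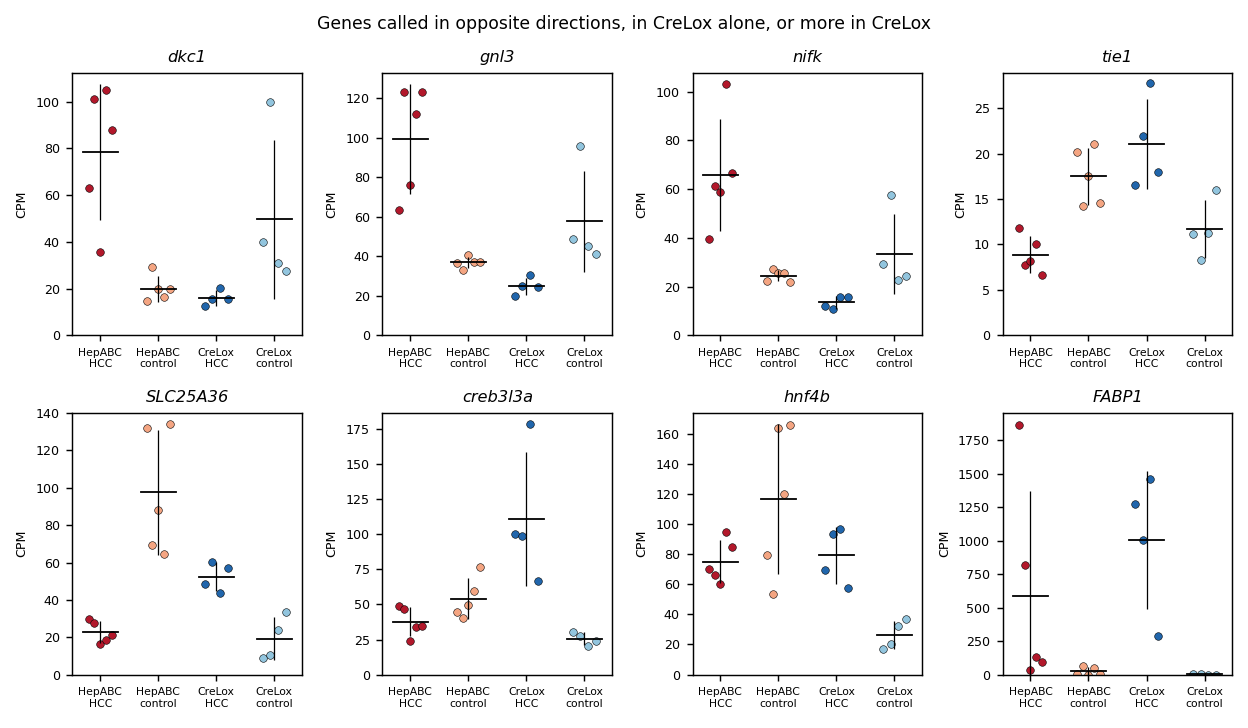
CPM of 8 genes, one point per fish, with group mean (horizontal bar) and SD (vertical line) in HepABC HCC and control (n = 5 each) and CreLox HCC and control (n = 4 each). Tumors lie above controls in HepABC and below them in CreLox for dkc1, gnl3 and nifk, in the reverse order for tie1 and SLC25A36, and above controls in CreLox for creb3l3a, hnf4b and FABP1. The rule that named dkc1, nifk, tie1, SLC25A36 and creb3l3a required this separation.

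Among Wnt pathway targets, wif1 rose in both models and lef1 in HepABC HCC. The list as a whole did not move in one direction. Of 15 tested members, 7 were called higher and 3 lower in HepABC HCC, against 2 higher and 0 lower in CreLox HCC. The list medians were -0.06 in HepABC and 0.04 in CreLox. For the difference, 2 members were called, both positive, and 6 of the 15 differences were negative. wif1, a secreted Wnt inhibitor, had 33.6, 119, 49.4, 51 and 112 CPM in HepABC HCC, against 1.48, 2.44, 0.487, 0.187 and 0.379 CPM in HepABC control. It had 9.28, 24.2, 12.4 and 8.25 CPM in CreLox HCC, against 1.0, 2.33, 0.915 and 2.66 CPM in CreLox control. All tumors exceeded their controls and the HepABC change of 6.18 was larger than the CreLox change of 2.97 (log2 difference 3.22, standard error 0.83, adjusted p = 0.0166). lef1, a nuclear partner of β-catenin, changed by 5.95 in HepABC and had a value of 2.21 in CreLox, where it was not called, and its difference of 3.74 did not pass without fish 628 and 630 (adjusted p = 0.404), nor did that of wif1 (adjusted p = 0.0557). The feedback gene axin2 and the AP-1 gene jun changed by 2.12 and 2.06 in HepABC, and had values of 0.95 and 1.51 in CreLox that did not pass (adjusted p = 0.29 and 0.0662). Every CreLox tumor was nevertheless above every CreLox control for both genes. Neither difference passed (adjusted p = 0.261 and 0.591). The paper, with DESeq2 in each experiment, counts axin2, jun, wif1 and myca among genes significantly raised in bulk HCC, from its table of genes dysregulated in both models. mtor, the growth-controlling kinase, was not called in either model. The name MYC is carried by 2 identifiers, and the symbols do not say which of them is myca. The paper reports myca as raised, and only ENSDARG00000045695 had positive values in both models. One (ENSDARG00000045695, chosen after its values were seen) had a value of 1.44 in HepABC that did not pass and changed by 2.77 in CreLox, and the other (ENSDARG00000007241) had values of -1.16 and -0.49. Neither difference was called.

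FABP1 (ENSDARG00000059227), one of 2 identifiers named for a liver fatty acid binding protein, rose in both models, with the larger fold change in CreLox. It had 1864, 815, 37.1, 128 and 91.1 CPM in HepABC HCC, against 3.78, 61.1, 0.292, 49.7 and 4.79 CPM in HepABC control. In CreLox HCC it had 1274, 1007, 1458 and 287 CPM, against 0.906, 0.343, 0.0458 and 0.153 CPM in CreLox control. The CreLox groups were separate, while HepABC tumor 317E9 fell below HepABC controls 317C2 and 317C5 (log2 difference -6.81, standard error 1.84, adjusted p = 0.0215). The larger CreLox fold change rests on CreLox controls near 0, with at most 19 counts. Tumor levels of the 2 models overlapped. Without fish 628 and 630 the difference was -8.66 (adjusted p = 0.0738). A muscle-type member, fabp3, differed by -1.83.

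Immediate early and heat shock genes carried positive differences, some of which moved with the CreLox controls. The immediate early list had 6 positive calls of 24, a HepABC median of -0.19 and a CreLox median of -1.82. nr4a1, an immediate early nuclear receptor, had 0.34, 0.339, 1.03, 0.421 and 0.372 CPM in HepABC HCC, against 0.288, 0.248, 0.292, 0.701 and 0.138 CPM in HepABC control. It had 0.429, 0.197, 0.0656 and 0.184 CPM in CreLox HCC, against 1.91, 1.85, 0.824 and 0.613 CPM in CreLox control. CreLox controls 630 and 628 held the highest values of the 4 groups (log2 difference 3.12, standard error 0.84, adjusted p = 0.021). FOSL1 (ENSDARG00000015355) and dusp5, a MAP kinase phosphatase gene, were called in HepABC alone and changed there by 2.36 and 2.64, while the AP-1 gene fosl2 was called for the difference alone (2.52). Without fish 628 and 630 the differences of FOSL1 and dusp5 were 2.82 and 3.96 (adjusted p = 0.0836 and 0.0526). That of fosl2 was 1.75 (adjusted p = 0.215). The heat shock list had 4 positive calls of 21. hsp70.3 had 0.585, 0.232, 0.65, 0.301 and 0.372 CPM in HepABC HCC, against 0.324, 0.124, 0.828, 0.327 and 0.138 CPM in HepABC control. In CreLox HCC hsp70.3 had 0, 0.823, 0.426 and 0.323 CPM, against 12.1, 32.8, 0.0458 and 0.102 CPM in CreLox control. Only CreLox controls 630 and 628 exceeded 1 CPM. Its difference of 5.15 (standard error 1.68, adjusted p = 0.0487) turned to -2.05 without fish 628 and 630, and nr4a1 differed by 2.27 (adjusted p = 0.15). hspd1 differed by 3.19 with them and 0.57 without them, and hspa14 by 1.87 and 1.32. Without these fish edgeR called 0 members of the immediate early list and 0 of the heat shock list, with 8 and 2 at an unadjusted p under 0.05 and median differences of 0.62 and -0.14 in place of 1.03 and 0.77. The ER chaperone list had 4 positive and 2 negative calls of 34, and its median difference of 0.56 turned to -0.42. Its negative calls were the disulfide isomerase gene p4hb, lower in both models by -2.63 and -0.93, and the translocon gene SEC61A1 (ENSDARG00000021669; -1.63), and 2 negative calls were found without the pair.

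**Figure D5:**
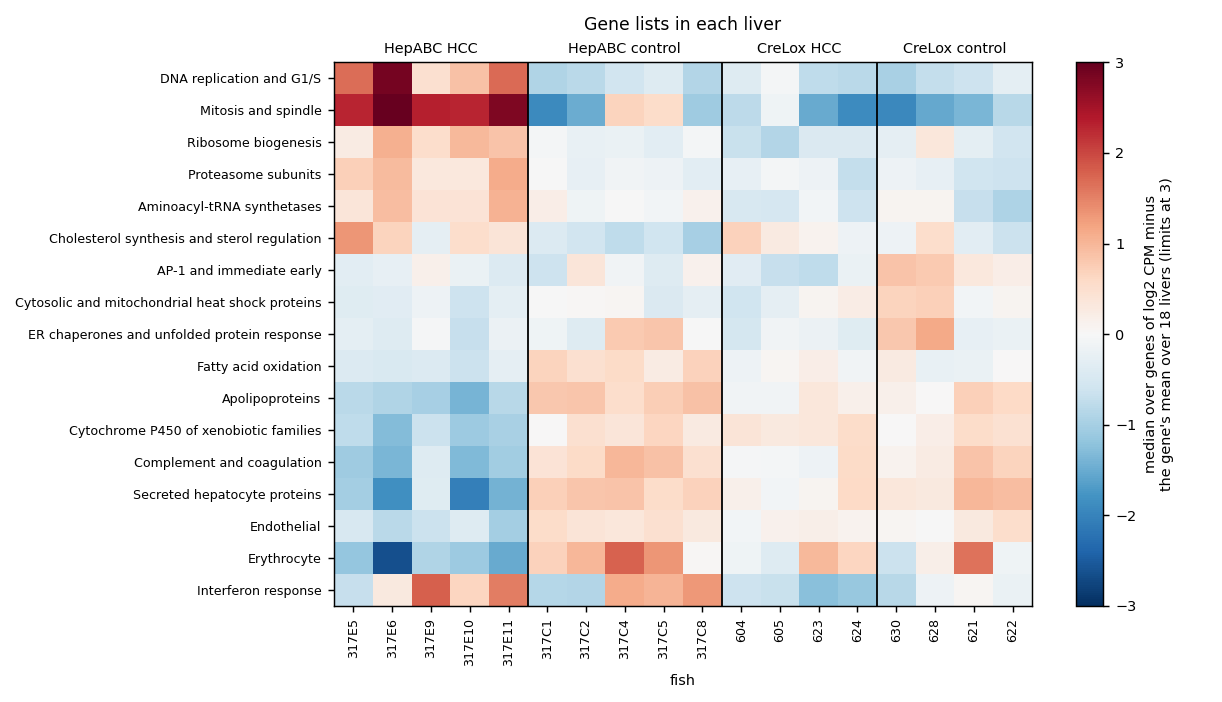
Median over each list's genes of log2 CPM (0.1 CPM added) minus the gene's mean over the 18 livers, for 17 lists (rows) in each liver (columns, by fish and group), from blue (lower) to red (higher). HepABC tumors share the high replication, mitosis and ribosome biogenesis rows and the low secreted, complement and coagulation rows, and CreLox controls 630 and 628 differ from 621 and 622 in the immediate early and heat shock rows.

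Some markers of other liver cells also differed between the models. Endothelial genes had 9 negative calls of 21, including the receptor gene kdrl (-1.14) and the junction gene cdh5 (-1.03). The summed level of the 25 endothelial markers was 81.1 to 118 CPM in HepABC HCC, against 215 to 246 CPM in HepABC control. It was 155 to 211 CPM in CreLox HCC, against 171 to 266 CPM in CreLox control, so that the CreLox groups overlapped. Stellate and matrix genes had 2 positive and 8 negative calls of 34, led in p by LRAT (ENSDARG00000037278), which stores retinol in stellate cells, at -2.70. As a list they were lower in both models, with medians of -1.02 in HepABC and -0.89 in CreLox. The median difference was -0.14, with 14 positive and 20 negative differences. FN1, fibronectin, is the name of 2 identifiers that differed by -3.85 (ENSDARG00000006526) and 3.57 (ENSDARG00000019815, chosen after its values were seen). The paper lists fn1b among genes raised in a single-cell cluster made up mostly of hepatocytes from a HepABC HCC. Which identifier is fn1b cannot be told here, and FN1 levels are not read as those of stellate cells alone. steap4 and the proteoglycan gene BGN (ENSDARG00000002945) differed by -1.84 and -2.02. The 41 markers summed to 529 to 1258 CPM in HepABC HCC, against 5650 to 11989 CPM in HepABC control. In CreLox HCC they summed to 3308 to 10491 CPM, against 5859 to 12750 CPM in CreLox control. FN1 (ENSDARG00000006526) alone made up most of these sums outside the HepABC tumors, with 120 to 732 CPM in HepABC HCC, against 5039 to 11321 CPM in HepABC control, and with 2633 to 9948 CPM in CreLox HCC, against 5178 to 12027 CPM in CreLox control. The other 40 markers summed to 339 to 526 CPM in HepABC HCC, against 486 to 667 CPM in HepABC control, and to 542 to 694 CPM in CreLox HCC, against 643 to 796 CPM in CreLox control, so that the groups overlapped in both models. Without fish 628 and 630, 1 endothelial and 4 stellate genes had negative calls.

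Erythrocyte genes had 6 negative calls of 12. hbaa1, an adult α globin, had 36.3, 23.3, 59.2, 35.5 and 25.9 CPM in HepABC HCC, against 244, 267, 537, 546 and 273 CPM in HepABC control. It had 138, 127, 389 and 228 CPM in CreLox HCC, against 98.1, 203, 471 and 156 CPM in CreLox control. Only the HepABC groups were separate (log2 difference -3.30, standard error 0.63, adjusted p = 0.0034). hbaa2 and the carbonic anhydrase gene cahz differed by -5.10 and -3.51. The 14 erythrocyte markers summed to 61.5 to 165 CPM in HepABC HCC, against 385 to 822 CPM in HepABC control. They summed to 199 to 561 CPM in CreLox HCC, against 174 to 706 CPM in CreLox control. Exocrine pancreas genes had 6 negative calls of 15, with ela2l, an elastase, at -6.02. ctrl, a chymotrypsin-like protease gene, had 0.151, 0.339, 0.0271, 0.241 and 0.634 CPM in HepABC HCC, against 380, 75.1, 126, 37.9 and 0.862 CPM in HepABC control. It had 3.18, 2.96, 2.59 and 0.784 CPM in CreLox HCC, against 23, 2.91, 51.8 and 6.9 CPM in CreLox control. HepABC control 317C8 was near the tumors and the other 4 far above them (log2 difference -5.62, standard error 1.59, adjusted p = 0.0267). The 20 pancreas markers summed to 69.8 to 202 CPM in HepABC HCC, against 52.7 to 10457 CPM in HepABC control. In CreLox HCC the sum was 438 to 580 CPM, against 355 to 1270 CPM in CreLox control. Of this, the amylase gene amy2al1, named for its level, had 386 to 504 CPM in CreLox HCC, against 219 to 461 CPM in CreLox control. The part of these cell types in the differences of other lists was not tested. Without fish 628 and 630 edgeR called 2 erythrocyte and 0 pancreas genes, 9 pancreas genes had an unadjusted p under 0.05, ctrl differed by -5.15 (adjusted p = 0.124), and limma voom with all fish called 0 pancreas genes.

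Other lists showed few or no called differences. No member of the interferon (29 tested), p53 target (18) or biliary and progenitor (13) lists was called by edgeR, and 2, 3 and 3 had an unadjusted p under 0.05. DESeq2 called 2 biliary and progenitor genes and none of the others, and limma voom called 0 in each of these lists. For the interferon list 27 of 29 differences were positive, with a median of 1.23, beside 0.02 for all genes. Without HepABC controls 317C1 and 317C2 this median was 0.76, and the HepABC median of the list turned from 0.30 to -0.14. Biliary and progenitor markers summed to 6686 to 11837 CPM in HepABC HCC, against 1896 to 4331 CPM in HepABC control. They summed to 3422 to 6222 CPM in CreLox HCC, against 1897 to 3158 CPM in CreLox control, with tumors above controls in both models. A single gene (ENSDARG00000058358) held 2641 to 5497 CPM of this in HepABC HCC and 1788 to 2963 CPM in CreLox HCC. Of the 13 tested members, 3 were called higher in HepABC HCC and 1 in CreLox HCC. The list medians of single livers overlapped between tumors and controls in both models. Macrophage and neutrophil genes had 1 positive call of 26. The circadian list had 1 call of 33, NR1D2 (ENSDARG00000009594; -2.21), and the Myc family 1 of 12, mlx (-1.16), a partner of the glucose-responsive factors. With fish 628 and 630 left out, edgeR called 0 macrophage and neutrophil genes, with 3 at an unadjusted p under 0.05, and 1 circadian gene and 1 Myc family gene.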

How the data were processed

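Livers were sequenced as poly(A) mRNA. The authors aligned reads to GRCz11 (STAR 2.6.1b) and deposited whole-number read counts per Ensembl gene (featureCounts 1.6.3), one table per experiment, with optical duplicates removed from the CreLox reads only. DESeq2 1.22.2 is among the tools of the submitters' processing notes, and its results were not used here.

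Here the counts of 20 libraries in 5 groups were fitted together with edgeR 4.0.16 (R 4.3.3; TMM factors, glmQLFit and glmQLFTest, Benjamini-Hochberg adjustment over 15387 genes). Genes were kept by filterByExpr within each experiment. The contrasts were HepABC HCC − HepABC control, CreLox HCC − CreLox control and their difference. Each standard error is the absolute log2 value divided by the square root of the test's F statistic. It is derived from the test and is not a separate estimate. The 2 CreLox livers without HCC entered the gene filter, the TMM factors and the estimate of spread, and no contrast. Levels are CPM of tested genes, with 0.1 CPM added before logarithms for single livers. A fold against a group at 0 used a floor of 3 counts, which covers counting error only. Each library is a separate fish, and the closest pair of a group differed far beyond counting noise (chi-square of 45.3 per degree of freedom). Depth gives 20 counts at 1 CPM in the shallowest library.

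Symbols were matched for 29201 of 32520 identifiers, and 6314 identifiers shared a symbol with another. Lower-case names are those of 1 identifier. The 48 function lists, the comparison and its members were chosen with earlier results of these data known. Where identifiers share a symbol, a list took as many as it had names for, in order of mean count. Genes were named by 3 rules: the genes the study named for its libraries, with fabp10a; up to 4 per class and direction with the largest difference among genes with a mean log2 CPM of 2 or more whose tumor livers lay wholly outside their controls; and up to 4 called members per list in order of p. Other genes are marked as chosen after their values were seen. For genes named by the second rule, separation of tumors from controls in the called models was fixed by that choice.

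The fit was tested on simulated data. Alternatives were DESeq2 1.42.0, limma 3.58.1 (voom with sample weights), other scalings, filters, thresholds and sets of libraries, and each fish left out in turn. The fits without fish 628 and 630 and without fish 317C1 and 317C2 were chosen after seeing the data. Promoter sequences were not analysed here. A few named genes are not reported here.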

Additional observations from a re-analysis of the deposited data

Results flagged for a closer look

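The response differed between the models, by the test of the difference itself, at 2144 genes. Among the genes described fish by fish, the log2 difference (HepABC minus CreLox) was positive for rpa2 (2.50), pola1 (3.45), cdc20 (3.02), gnl3 (2.64), dkc1 (3.62), nifk (2.73), psmb1 (1.07), umps (3.48), psat1 (5.47), insig1 (3.98), hmgcs1 (3.66), SQLE (11.26), FOXO1 (4.61), GLUL (4.32), SLC2A1 (2.47), both SLC7A3 identifiers (4.22 and 3.48), hsp70.3 (5.15), nr4a1 (3.12), wif1 (3.22) and vtg1 (10.41). It was negative for acads (−2.16), apoa2 (−1.88), ahsg2 (−5.56), apcs (−4.43), F7 (−3.15), cyp2k22 (−5.59), TMEM120A (−6.24), creb3l3a (−2.64), hnf4b (−2.21), xkr9 (−5.26), SLC25A36 (−3.55), tie1 (−1.83), FABP1 (−6.81), hbaa1 (−3.30) and ctrl (−5.62). The fitted values of SQLE and vtg1 rest on controls at or near 0 and depend on the prior count, and SQLE was called in only 5 of 18 fits that left out 1 fish each and not without fish 628 and 630. The CreLox controls of FABP1 were also near 0.

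One fish lay far from the rest of its group in 13 of the 144 groups of these genes examined, and chance gives about 1 in 20. In HepABC HCC, fish 317E9 was low for psmb1 (47.1 CPM) and high for nr4a1 (1.03 CPM). In HepABC control, 317C4 was low for psat1 (0.292 CPM) and high for the first SLC7A3 identifier (39.5 CPM), 317C1 was low for apcs (5822 CPM), 317C2 for F7 (179 CPM) and 317C5 for cyp2k22 (415 CPM). In CreLox HCC, fish 605 was high for psat1 (1.88 CPM), and 624 was low for hmgcs1 (8.02 CPM) and ctrl (0.784 CPM), as was 604 for GLUL (3.18 CPM). In CreLox control, 628 was high for SQLE (7.68 CPM) and 630 was at 0 for xkr9, a count of 0 beside low values in the other 3.

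The 2 CreLox livers without HCC, which enter no contrast, had levels above every CreLox control for 6 of the genes described fish by fish that were called higher in CreLox HCC, and 1 of them for tie1. Fish 625 and 609 had 69.9 and 98.6 CPM of creb3l3a, 86.4 and 81.9 CPM of hnf4b, 9.49 and 13.4 CPM of xkr9, 60.9 and 43.1 CPM of SLC25A36, 26 and 21.8 CPM of wif1, and 178 and 672 CPM of FABP1. Fish 609 had 17.7 CPM of tie1. Genes called lower in CreLox HCC were mixed. Both livers were below every CreLox control for SLC2A1 (2.66 and 3.01 CPM) and sult2st3 (9.12 and 4.42 CPM). They were not both below for FOXO1 (155 and 7.75 CPM), GLUL (ENSDARG00000100003; 5.01 and 26.5 CPM) or zmynd19 (6.02 and 3.92 CPM). These levels were not tested.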

How the results depend on the processing

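The count of genes with a different response was within 1.5 times 2144 with DESeq2's Wald test (2926), limma voom (2071), DESeq2 size factors (2137), scaling within each experiment (2136), 18 libraries (1948), the 3 other filters (1774 to 2115), an added minimum change (1981) and without fish 317C1 and 317C2 (1886). Separate fits of each experiment called 5342 genes in HepABC and 707 in CreLox. Library size alone called 3433 genes (2995 positive and 438 negative, beside 1119 and 1025), 9021 in HepABC (8097 and 924, beside 3125 and 2801), 1255 in CreLox (1045 and 210, beside 449 and 339), 3020 in HepABC alone, 118 in one direction and 38 in opposite directions, and changed the sign of 9 of 47 list medians. Without fish 628 and 630 the counts were 755 for the difference, 502 in CreLox, 631 in HepABC alone, 73 in CreLox alone, 11 in one direction, 15 in opposite directions, 25 in neither and 109 list members. An unadjusted p gave 4475, 3288 in CreLox, and classes of 2891, 648, 283, 369 and 284. DESeq2 called 1568 in CreLox, 285 in CreLox alone, 103 in one direction and 140 in opposite directions, and voom 1264 in CreLox and 59 in one direction. Keeping genes with at least 1 count in each experiment gave 23 in one direction and 28 in opposite directions, 10 counts in every library gave 25 in one direction, and a minimum change of 1 gave 36 in opposite directions and 384 in neither. The cause of these shifts was not tested.

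With each fish left out in turn the difference was called at 1327 to 2329 genes (677 to 1257 positive and 650 to 1168 negative), HepABC at 5318 to 6105 (2860 to 3263 higher and 2427 to 2950 lower) and CreLox at 316 to 938 (225 to 537 higher and 91 to 401 lower). The classes ranged from 1121 to 1914 in HepABC alone, 58 to 174 in CreLox alone, 17 to 45 in one direction, 12 to 87 in opposite directions and 72 to 240 in neither, and called list members from 186 to 319. Of 129 named genes called for the difference, 103 were called with any fish left out, and 128 kept their sign in all settings. The exception was hsp70.3, at −2.05 without fish 628 and 630. The named genes were selected by the main fit and the settings share most livers, so kept signs are no independent check. Among genes not called, mtor (−0.06) turned to 0.52 with library size alone and 0.0280 with voom, and ranged from −0.136 to 0.0409 with 1 fish left out. MYC (ENSDARG00000007241) turned to 0.57 with voom and 1.00 without fish 317C1 and 317C2, and ranged from −1.03 to 0.89. GLUL (ENSDARG00000099776) turned to 0.0438 with library size alone, 0.28 with voom and 0.32 without fish 628 and 630, and ranged from −1.21 to 0.79. No paired analysis was possible because the replicate numbers only name separate fish. Promoter motifs were not run.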
